A study of Mus musculus with 28 samples.

Results

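Small nucleolar RNAs were read from the liver arrays through 56 genes, of 18820 genes that had a probe set naming 1 gene alone. They were all the genes whose symbol in the array annotation starts with Snord (30 genes) or Snora (26 genes). Together 63 such probe sets named them, and where a gene had 2 (7 genes) the probe set with the higher mean over all arrays stood for it. The 2 probe sets held identical values for 4 of these genes and gave like differences for the other 3. A further 13 probe sets that name a small nucleolar RNA together with another gene were left out. RNA from 28 livers of male C57BL/6J mice was measured, 1 array for each mouse. Mice of the lifelong groups ate the intermittent diet from 9 weeks of age, which alternated a week of moderate-fat food (25% of energy from fat) without restriction with a week at 60% of the energy eaten by control mice. Livers of these groups were taken at an age of 6 months from 6 mice, of 12 months from 7 mice and of 24 months from 7 mice. The switched group (n = 8) ate the moderate-fat food without restriction from 9 weeks until 12 months of age, then the intermittent diet until sampling at 24 months. All mice were housed individually and received a gavage of the vehicle carboxymethyl cellulose between fasts of 4 hours before and 6 hours after it. The labels used here do not say in which week of the diet cycle a mouse was sampled.

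Small nucleolar RNAs are short noncoding RNAs of the nucleolus, the site where ribosomal RNA is made and trimmed. Box C/D RNAs (Snord genes) pair with a target RNA and place the methyltransferase fibrillarin on it. Box H/ACA RNAs (Snora genes) do the same for the pseudouridine synthase dyskerin. A few members, among them Snord118 (U8), the Snora73 pair (U17) and the Snord14 family (U14), are known for roles in cutting the ribosomal RNA precursor. In mammals most of them lie in introns of other genes, called hosts, and are trimmed out of the excised intron, while Snord118 is transcribed on its own. Hosts are often genes of ribosomal proteins and translation factors, or genes with little coding capacity such as Gas5 and the Snhg genes.

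The RefSeq gene table (GRCm38.p6) held all 56 members, and 55 of them lay within the span of a host, Snord118 being the exception. There were 44 hosts, of which 34 code for protein, 16 of these for a ribosomal protein, and 10 are noncoding. The host was the smallest annotated gene around the member, and the table gives no strand, so strand was not checked. Of the hosts 10 held more than 1 member, and Snhg12 held 3 (Snora16a, Snora44 and Snora61). A probe set for a member reads any labelled RNA with its sequence, so the mature RNA and unspliced host RNA cannot be told apart on these arrays.

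Host genes of this kind are known for transcripts that begin with a C followed by a run of pyrimidines, the 5′ terminal oligopyrimidine start. The annotated start was searched for a C followed by at least 4 further C or T letters on the gene's own strand, at that single position. RefSeq promoter windows (GRCm38.p6) were given for 34 of the 44 hosts, and 6 of these 34 (17.6%) began so: 1110038B12Rik, Gas5, Gm36220, Ipo7, Rack1 and Rplp2. Of all promoter windows 2.51% did, and 3.01% of all genes with a window. For Gas5 the match was in 1 of its 2 windows. The match describes letters at annotated starts, and those of other hosts may be placed a few bases away from the transcript's true end.

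The 50 bases around the start, 30 before and 20 from it, are shown for a selection of hosts, with the pyrimidine run at the start in capitals. The share of runs among them does not stand for all hosts. Not shown are Snhg6 (host of Snord87), which had no window, and Snhg3 (host of the Snora73 genes), whose start did not match.
Rack1 (host of Snord96a and Snord95), chr11:48800330-48800379, plus strand: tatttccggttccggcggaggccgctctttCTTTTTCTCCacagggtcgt
Ipo7 (host of Snora23), chr7:110018285-110018334, plus strand: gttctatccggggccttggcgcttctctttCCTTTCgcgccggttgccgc
Gas5 (host of Snord47), chr1:161035136-161035185, plus strand: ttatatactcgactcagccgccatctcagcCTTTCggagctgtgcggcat
Gm36220 (host of Snord104), chr11:106500885-106500934, plus strand: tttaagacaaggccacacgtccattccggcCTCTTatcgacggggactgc
Nop56 (host of Snord57), chr2:130274382-130274431, plus strand: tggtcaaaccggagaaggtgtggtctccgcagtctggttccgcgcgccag
Wdr43 (host of Snord53), chr17:71616185-71616234, plus strand: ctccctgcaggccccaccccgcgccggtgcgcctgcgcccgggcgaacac
Rack1 has the longest run of these, 10 bases, and Nop56 and Wdr43 have none.

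All values are log2 expression. Member means over the 28 arrays ran from 3.13 (Snora19) to 12.07 (Snord104), with a median of 6.52, and 43 of the 56 means were above the median probe set. Brightness depends on the probes as well as the RNA, so the order of members by brightness describes the probe sets and is no order of RNA levels. Tests compared each probe set with itself across livers. The SD across all livers had a median of 0.236 over the members, against 0.185 over all 35556 probe sets. The 5 brightest members of each class were Snord104, Snord57, Snord49b, Snord82, Snord14e, Snora52, Snora23, Snora73b, Snora28 and Snora73a. Array medians ran from 5.23 to 5.31, and the correlation between any 2 arrays across probe sets from 0.978 to 0.992. The 12 hepatocyte markers measured, as a check of the tissue label, had means over all arrays between percentiles 97.4 and 100 of all probe sets.

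Array names fell into 3 array batches, G150 (18 arrays), G151 (5) and G152 (5), and each batch held livers of all 4 groups. In G150 the row letter in the array name was B for every 6-month liver and C for every 12-month liver. Lifelong 24-month replicates 3 and 4 were in row D, while replicates 5 and 6 shared row E with all switched livers of G150. Place and age therefore cannot be told apart in G150, but row E held livers of both 24-month groups. A comparison within row E was not made. The labels do not say what the prefix stands for.

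A set of 4 livers stood apart in several members: 12-month replicate 7 and switched replicates 6, 7 and 8. Snord104 was at 11.51 in the first and at 10.92, 10.30 and 10.38 in the others. These same livers were the lowest of their groups for both Snora73 genes. As a summary of all 56 members, each member's deviation from its own mean over the arrays was averaged in each liver. The lowest livers by this mean deviation were switched replicates 6 (-0.334) and 7 (-0.262), and the highest was 6-month replicate 6 (0.296). The group means were 0.074 ± 0.130 (SD, n = 6) at 6 months, 0.040 ± 0.068 (n = 7) at 12 months, -0.021 ± 0.124 (n = 7) at 24 months and -0.072 ± 0.168 (n = 8) in the switched group, so each SD was wider than the steps between neighbouring ages. By array batch the means were -0.052 ± 0.124 (n = 18) in G150, 0.108 ± 0.078 (n = 5) in G151 and 0.080 ± 0.125 (n = 5) in G152. For the 306 microRNA genes, other small RNAs on the same arrays, the batch means were 0.007, -0.006 and -0.019. Their probe sets were dimmer, with a median of the means of 3.67, against 6.52 over the members. Other small RNA classes are given with the batch differences below.

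**Figure D1:**
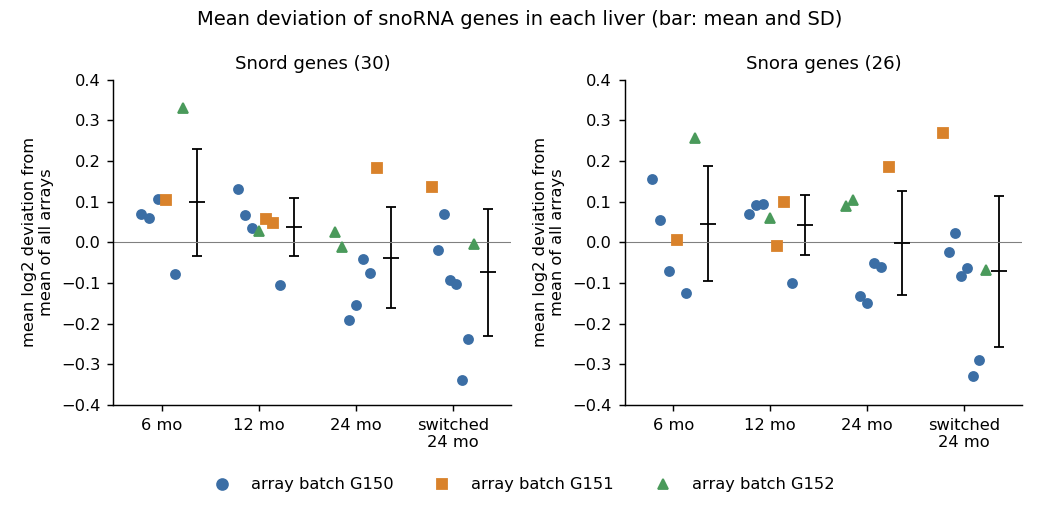
Mean deviation of the 30 Snord genes (left) and the 26 Snora genes (right) in each liver, in log2 units from each gene's mean over the 28 arrays, by group, with array batch shown by colour and shape and bars for the mean and SD. Livers of G151 and G152 tend to sit above those of G150, and switched replicates 6 and 7, both G150, are the lowest points of both panels.

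The first question was how the members differed with age on a lifelong intermittent diet. All lifelong mice began the diet at 9 weeks, so age and time on the diet cannot be told apart in these comparisons. At 24 months against 6 months 4 of the 56 members were lower and 0 were higher at an adjusted p under 0.05 (limma, Benjamini-Hochberg over all probe sets), where 2.63% of all probe sets were lower and 2.10% higher. They were Snord96a, Snora23, Snord47 and Snord87, each between 1.25- and 1.35-fold lower. At an unadjusted p under 0.05, 21 members were lower and 3 higher (all probe sets, 11.2% lower and 8.04% higher). The median difference was -0.12 over the members and -0.02 over all probe sets. Of the members 39 of 56 were below 0 (69.6%), against 54.4% of all probe sets. Snord genes had a median of -0.19 with 24 of 30 below 0 (80%). Snora genes had a median of -0.03 with 15 of 26 below 0 (57.7%), near the share of all probe sets. Whether the 2 classes differ was not tested. MicroRNA genes had a median of -0.04, with 3 of 306 lower.

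**Figure D2:**
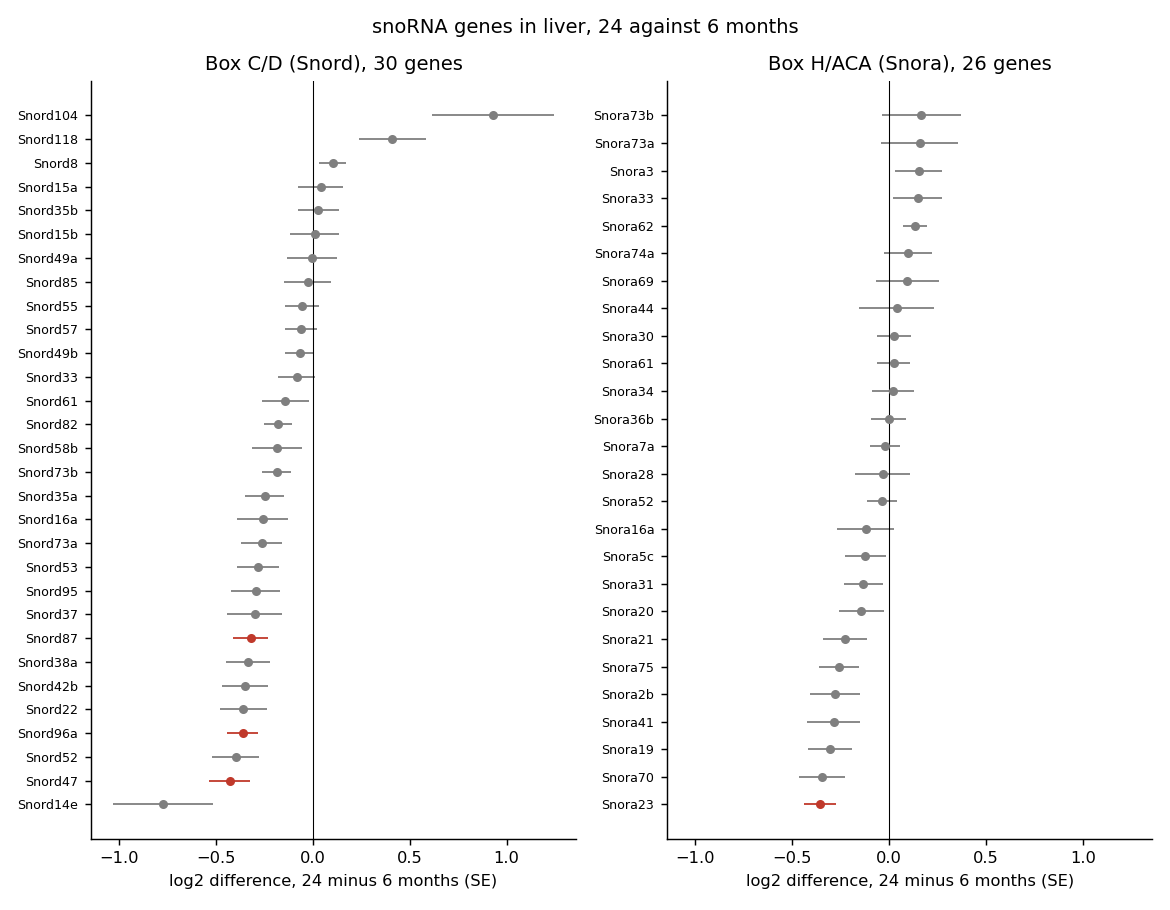
Log2 difference between lifelong livers at 24 and 6 months (x axis, 24 minus 6) for each Snord gene (left) and Snora gene (right), with the standard error as a bar. Members past the threshold are red: Snord47, Snord96a and Snord87 at the left and Snora23 at the right, while Snord104 and Snord14e have the largest differences and the widest standard errors.

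Snord96a, a box C/D RNA from an intron of Rack1 (a ribosome-bound scaffold protein), was the member of smallest p. Its level at 6 months had a lowest value of 5.64, a median of 5.87 and a highest value of 6.44. At 24 months these were 5.25, 5.63 and 5.85. All 7 livers at 24 months were below the 6-month mean, although the ranges overlapped. The difference was -0.36 ± 0.08 (SE), with an adjusted p of 0.0102. It was -0.32 within G150, -0.14 within G151 and -0.69 within G152. The switched livers had a median of 5.61, and the 12-month livers one of 5.82.

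Snora23, a box H/ACA RNA from Ipo7 (the nuclear import receptor importin 7), ran from 9.09 to 9.74 at 6 months, with a median of 9.20. The lowest, median and highest values at 24 months were 8.63, 8.92 and 9.09. The ranges of the 2 groups did not overlap, and the highest of the 6-month livers was replicate 6, which was well above the rest. The difference was -0.36 ± 0.08 (SE; adjusted p = 0.016). Within batches it was -0.30, -0.02 and -0.83 in G150, G151 and G152.

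Snord47, a box C/D RNA carried by the noncoding gene Gas5, spanned 6.68 to 7.21 at 6 months (median 6.86) and 6.29 to 6.67 at 24 months (median 6.40). No liver at 24 months reached the lowest at 6 months. The difference was -0.43 ± 0.11 (SE; adjusted p = 0.0202), and within the batches -0.58, -0.03 and -0.31. Snord47 at 12 months (median 6.63) lay between the other ages.

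Snord87, a box C/D RNA from the noncoding gene Snhg6, spanned 4.97 to 5.44 at 6 months (median 5.09) and 4.64 to 5.12 at 24 months (median 4.85). The ranges overlapped, with all 7 livers at 24 months below the 6-month mean. The difference was -0.32 ± 0.09 (SE; adjusted p = 0.0409), and -0.35, -0.06 and -0.43 within G150, G151 and G152. For all 4 members the G151 value compares a single liver with a single liver and was the smallest of the 3.

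These calls depended on single livers. Without 6-month replicate 6, Snord47 was the one member left, and Snord96a (-0.28) and Snora23 (-0.25) no longer passed. Without 6-month replicate 3, Snord96a and Snora23 were left and Snord47 (-0.40) was lost. Snord87 was lost in 9 of the 13 fits that left out 1 liver. In the other direction, 8 members were lower without 24-month replicate 7, which added Snora70, Snora75, Snord14e and Snord22, and 7 were lower without 6-month replicate 5. The adjustment ran over all probe sets of each fit, so these counts can also move with the other probe sets. No member passed in G150 alone or in G151 and G152 alone, and the difference of all 4 was negative in both. Fitted on the 2 ages alone, Snord47 passed and Snord96a, Snora23 and Snord87 did not (adjusted p = 0.0645, 0.0931 and 0.0599). Outside the 4, Snord52 and Snord104 passed in that fit. The 4 livers that stood apart were picked by their Snord104 after its values were seen. Leaving them out gave 6 calls, the 4 and Snord52 as lower and Snord104 as higher. The Snord104 call carries no weight, and switched replicate 6 was also the lowest liver for Snord52 (4.29). None of those livers is of the 6-month or lifelong 24-month group. The SE fell for Snord104 (from 0.31 to 0.08), Snord52 (from 0.12 to 0.09) and Snord47 (from 0.11 to 0.09). It stayed near its earlier value for Snord96a, Snora23 and Snord87.

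**Figure D3:**
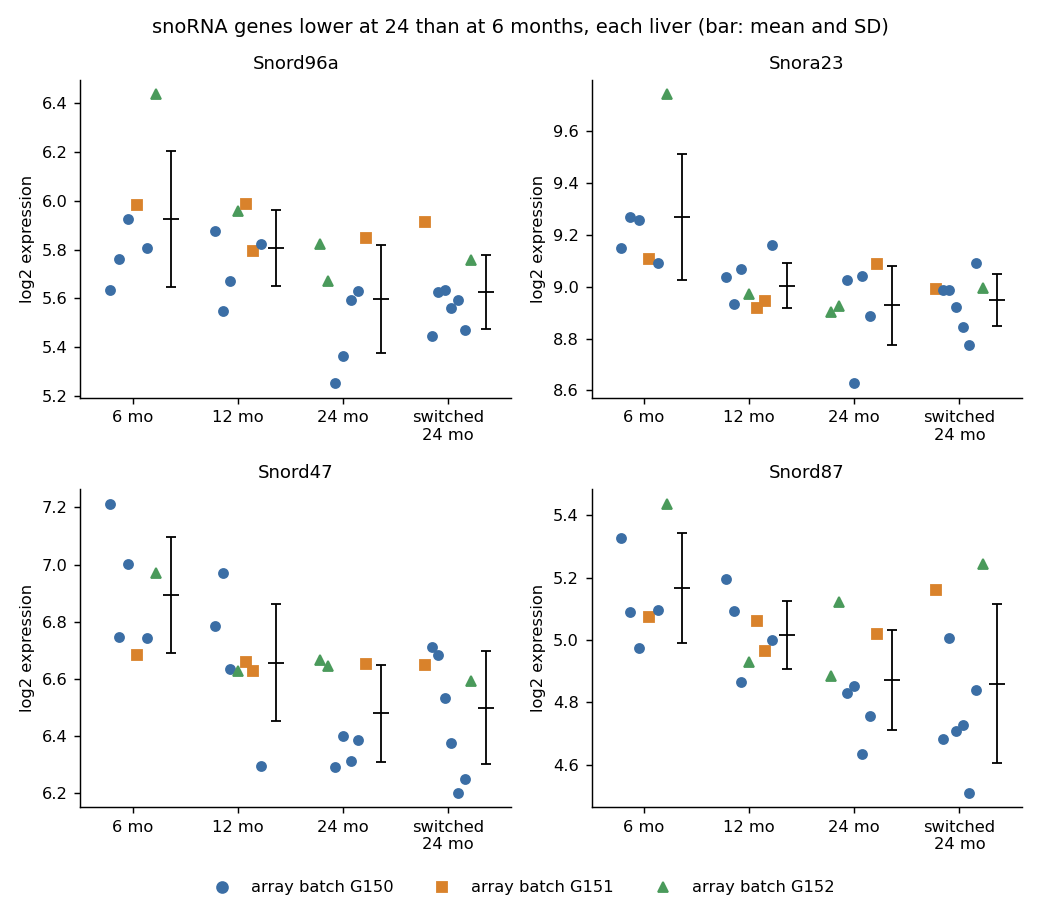
Log2 expression of Snord96a, Snora23, Snord47 and Snord87 in every liver, by group, with array batch by colour and shape and bars for the mean and SD. The 6-month livers of Snora23 (9.09 to 9.74) and Snord47 (6.68 to 7.21) lie above all 24-month livers of the lifelong group, and the switched livers lie at about the height of that group.

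Other members just missed the threshold. Snord52, carried by the noncoding gene 1110038B12Rik, had a difference of -0.40 (adjusted p = 0.0586) with all 7 livers below the 6-month mean. Snord14e, a U14 family member from an intron of Hspa8 (a constitutive heat shock protein), had a difference of -0.77 ± 0.26 (SE; adjusted p = 0.0833). Its 6-month livers ran from 8.99 to 9.82 and its 24-month livers from 7.41 to 9.43. The single pair of livers in G151 went the other way (0.37), against -1.12 in G150 and -0.61 in G152.

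Further members with an unadjusted p under 0.05 at 24 against 6 months did not pass after adjustment and are given by their values. From hosts that code for ribosomal proteins came Snord42b (Rpl23a, -0.35), Snora70 (Rpl10, -0.35), Snord73a and Snord73b (Rps3a1, -0.26 and -0.19) and Snord35a (Rpl13a, -0.25). From translation factor genes came Snora19 (Eif3a, -0.30), Snord37 (Eef2, -0.30) and Snora41 (Eef1b2, -0.28). Snord22 (Snhg1) had -0.36, Snord95 (Rack1) -0.29, Snord53 (Wdr43) -0.28, Snora2b (Kansl2) -0.28, Snora75 (Ncl) -0.26 and Snord82 (Ncl) -0.18. Besides Snord104, the positive ones were Snord118 (0.41, adjusted p = 0.183) and Snora62 (Rpsa, 0.13), the latter with all 7 livers at 24 months above the 6-month mean. Members of 1 host had unlike values in places: Snord35a and Snord33, both within Rpl13a, had -0.25 and -0.08, and the difference between them was not tested.

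At 12 months against 6 months, 0 of the 56 members passed (limma; all probe sets, 0.591%), with 3 higher and 8 lower at an unadjusted p under 0.05 (6.60% and 6.45% of all probe sets). The median difference was -0.05, against 0.00125 over all probe sets. Snord118, the U8 RNA needed for the large subunit's ribosomal RNA, had the smallest p. It ran from 6.24 to 6.73 at 6 months (median 6.50) and from 6.79 to 8.10 at 12 months (median 7.12), and the ranges did not overlap. The difference was 0.70 ± 0.17 (SE; adjusted p = 0.0606), and 0.62, 0.88 and 0.72 within the 3 batches. Its adjusted p ran from 0.0353 to 0.648 over the alternatives planned and from 0.031 to 0.156 leaving out 1 liver. It was 0.022 without the 4 livers that stood apart, a setting chosen after seeing the data. Those livers held the lowest Snord118 values of the 12-month and switched groups, so that value carries no weight. Across the 4 groups together, Snord118 passed the F test (adjusted p = 0.0454), as did Snord96a, Snora23 and Snord47, so 4 of 56 members did (8.07% of all probe sets). Its 24-month livers had a median of 6.91 and its switched livers one of 6.78.

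The next members by p at 12 against 6 months all had negative differences: Snora23 at -0.26, Snord53 (from Wdr43) at -0.32, Snord95 (from Rack1) at -0.35, Snord22 (from Snhg1) at -0.29 and Snord14e at -0.60. Their adjusted p-values ran from 0.148 (Snora23) to 0.311 (Snord14e). The comparisons at 12 and 24 months share the 6-month livers.

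Between 24 and 12 months 0 of the 56 members passed (limma; all probe sets, 0.0253%), with 3 lower and 0 higher at an unadjusted p under 0.05 (6.35% and 4.76% of all probe sets). The 3 were Snord96a (-0.22, adjusted p = 0.263), Snord57 from Nop56 (-0.18, adjusted p = 0.381) and Snord73a from Rps3a1 (-0.21, adjusted p = 0.435). The median difference was -0.05, against -0.02 over all probe sets.

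Snord104, from the noncoding gene Gm36220, had the largest SD over all livers (0.69) and fell into separate levels. Its 6 livers at 6 months ran from 11.32 to 11.98. At 12 months 6 of 7 livers lay between 12.40 and 12.61, and the seventh, replicate 7, was at 11.51. At 24 months all 7 livers lay between 12.41 and 12.63. In the switched group 5 of 8 livers lay between 12.27 and 12.77, and replicates 6, 7 and 8 lay below every other liver of the study. The 24-month and 6-month ranges did not overlap.

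The difference of Snord104 was 0.93 ± 0.31 (SE) at 24 against 6 months, about 1.91-fold, and did not pass (adjusted p = 0.0857). It was 0.95, 0.59 and 0.97 within the 3 batches. The standard error is shared by all 4 groups and so includes the low switched livers. Fitted on the 6- and 24-month livers alone, the difference was 0.90 ± 0.08 (SE) with an adjusted p of 0.00176, so the call depends on which livers set the spread. At 12 against 6 months the difference was 0.70 (adjusted p = 0.335), with 6 of 7 livers above the 6-month mean. Without the 4 livers that stood apart it passed at both ages, but those livers were picked by their Snord104 and that call carries no weight. In these comparisons Snord104 was singled out after its values were seen.

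The Snora73 genes, box H/ACA RNAs that share the host Snhg3, spread in the same livers. Snora73b spanned 8.36 to 9.20 at 6 months, 8.35 to 9.03 at 12 months, 8.67 to 9.17 at 24 months and 7.73 to 9.79 in the switched group. The 12-month low was replicate 7, the switched lows were 8.03, 7.73 and 7.85 in replicates 6, 7 and 8, and the switched high was replicate 1. Snora73a did the same, with 7.85 in 12-month replicate 7, with 7.73, 7.61 and 7.62 in switched replicates 6, 7 and 8, and with 9.60 in switched replicate 1. The 6-month livers, low in Snord104, overlapped the later lifelong livers in these genes: their medians were 8.50 for Snora73a and 8.77 for Snora73b, against 8.71 and 8.89 at 12 months and 8.60 and 8.94 at 24 months. Snord118 was at 5.67 in switched replicate 6, the lowest liver of the study, but at 7.24 in switched replicate 8. The lowest 12-month values of Snord118 (6.79) and of Snord14e (8.16) were also those of replicate 7.

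**Figure D4:**
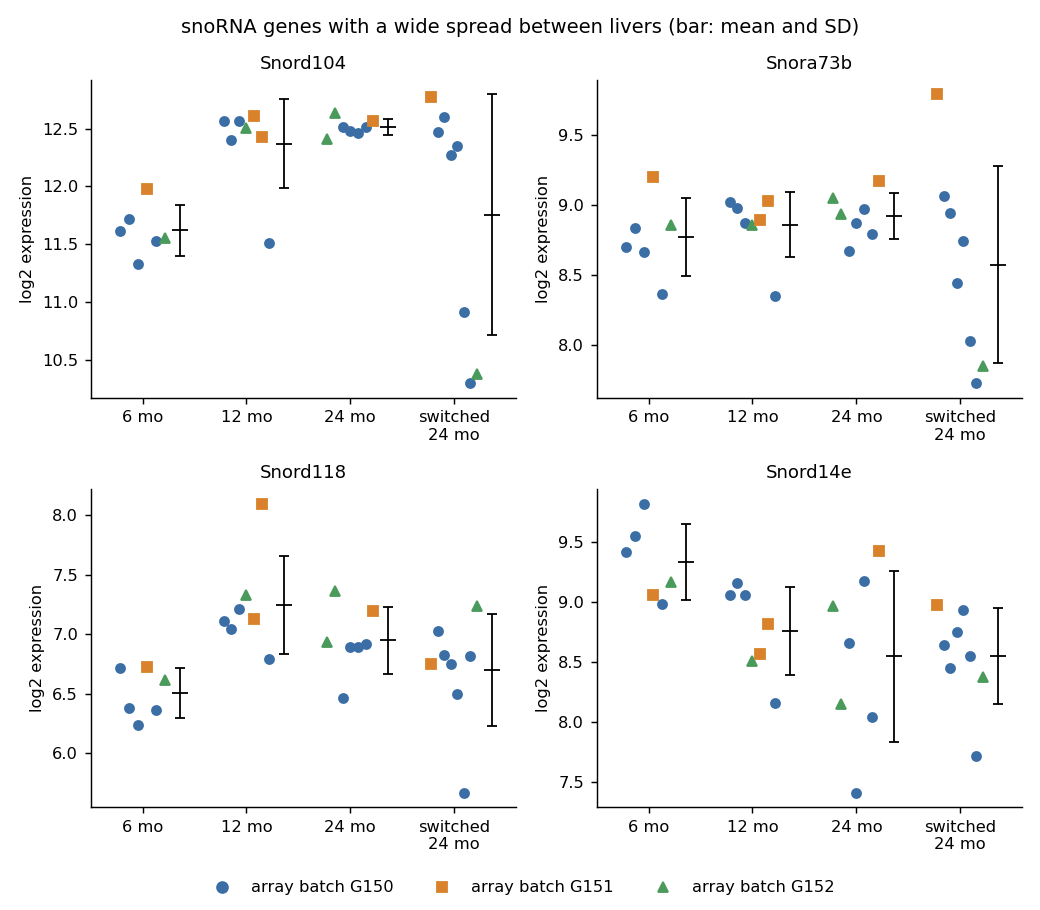
Log2 expression of Snord104, Snora73b, Snord118 and Snord14e in every liver, by group, with array batch by colour and shape and bars for the mean and SD. Snord104 has 6-month livers at 11.32 to 11.98 and nearly all later livers above 12.2, and the 4 later livers below 12 are also the lowest of their groups in Snora73b.

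At 24 months the switched group was compared with the lifelong group, to see whether starting the diet late left a difference. None of the 56 members passed (limma; all probe sets, 0.0197%), with 2 lower and 0 higher at an unadjusted p under 0.05 (4.02% and 3.56% of all probe sets). The median difference was 0.01, against -0.005 over all probe sets. Snord104 had a difference of -0.79 ± 0.29 (SE; adjusted p = 0.518), and its lowest livers were replicates 6, 7 and 8. The group's median was 12.31, against 12.51 in the lifelong group. Snord55, a box C/D RNA, had a difference of -0.17 (adjusted p = 0.642). Snora31, Snora70, Snora44 and Snord35b followed at -0.19, 0.21, -0.35 and -0.18.

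The members were mostly higher in G151 and G152 than in G150. Against G150, 17 of 56 members were higher in G151 and 17 in G152 at an unadjusted p under 0.05, and 0 were lower in either (all probe sets, 5.75% higher and 7.14% lower in G151, 7.70% and 8.25% in G152). Median differences were 0.15 and 0.13 over the members, and 0.004 and 0.006 over all probe sets. MicroRNA genes had medians of -0.03 and -0.02 and went both ways, with 28 higher and 47 lower of 306 in G151. The 3 Scarna genes (Cajal body RNAs) had medians of 0.27 and 0.11. The 5 genes of the Rnu class (spliceosomal and other small RNAs) had medians of 0.13 and 0.11. In both comparisons 0 genes of either class were below 0 (all probe sets, 48.7% in G151 and 48.2% in G152). These few genes lay on the same side as most members, and 0 of them passed after adjustment. Whether they share the shift of the members was not tested. After adjustment 0 members passed for G151 (limma, all probe sets, 0.903%), and Snord96a (0.33, adjusted p = 0.0239) and Snord73a (0.40, adjusted p = 0.0363) were higher in G152 (all probe sets, 0.366% higher). Snord73a is a dim probe set, with a mean of 3.93 over all arrays, at percentile 27.9 of all probe sets. Between G152 and G151 no member passed (all probe sets, 0), 1 was higher and 2 were lower at an unadjusted p under 0.05 (5.04% of all probe sets in either direction), and the median was 0.01.

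By the F test over both batch terms, Snord96a (adjusted p = 0.0132), Snora61 (0.0361) and Snora62 (0.0437) passed, 3 of 56 against 1.83% of all probe sets. Snord73a, Snora33 and Snora31 were next in order of p. Snora61, from Snhg12, had a median of 6.53 in G150, of 6.82 in G151 and of 6.82 in G152. Snora62, from Rpsa (a ribosomal protein gene), spanned 5.41 to 5.73 in G150 and 5.74 to 5.85 in G152, with no overlap. Snord96a, also the member of smallest p with age, had medians of 5.63, 5.91 and 5.82 in the 3 batches. Groups were spread over the batches (4, 1 and 1 livers of the 6-month group in G150, G151 and G152, and 4, 1 and 2 of the 24-month group), and batch was a term in every test above. Without it the 24 against 6 month count was 2, Snord47 and Snora23.

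Hosts with a probe set of their own numbered 29 and held 34 members. At 24 against 6 months 6 of the 29 were lower and 0 higher (all probe sets, 2.63% lower), with a median of -0.15. They were Nop56 (-0.71, adjusted p = 0.00664), Wdr43 (-0.59, adjusted p = 0.00485), Tbrg4 (-0.27), Rps3a1 (-0.24), Eif5 (-0.22) and Tcp1 (-0.20). Nop56, a core protein of box C/D particles, had a median of 9.03 at 6 months and 8.30 at 24 months, and its intronic Snord57 had medians of 11.06 and 10.98. Snord57 did not pass (-0.06, adjusted p = 0.757). Wdr43, a protein of the small-subunit processome, had medians of 8.59 and 7.99, and its Snord53 had a difference of -0.28 that did not pass (adjusted p = 0.128). Conversely the hosts of Snora23 and Snord47 did not pass: Ipo7 had -0.19 (adjusted p = 0.0807) and Gas5 had -0.23 (adjusted p = 0.0567). Whether a member and its host differ in their change was not tested.

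**Figure D5:**
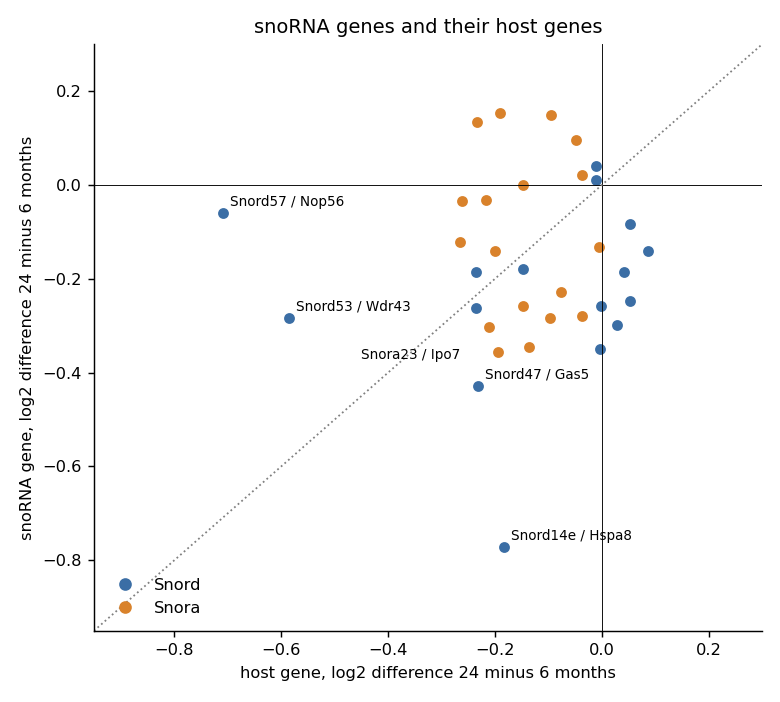
Log2 difference at 24 against 6 months of each member (y axis) against that of its host gene (x axis), for 34 members with a measured host, with the dotted line marking equal differences. Snord57 and Snord53 lie far to the left, their hosts being lower by 0.71 and 0.59, and Snord14e lies lowest, at -0.77 beside an Hspa8 difference of -0.18.

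Across the 28 livers, members were set against their hosts (34 pairs) and against other members of the same host (12 pairs). Of these 46 pairs, 13 had a Pearson's r with an adjusted permutation p under 0.05, and all 13 were positive. Pairs of genes that share no host were not measured, so the part of a shared host in these values was not tested. The median r was 0.302 for member and host (from -0.364 to 0.653) and 0.394 for members of 1 host (from 0.242 to 0.971). Snora73a and Snora73b had r = 0.971 and Spearman's rho = 0.927 (each permutation p = 1e-05, the smallest that 100000 permutations can give; adjusted 0.00046), r = 0.964 without the 2 livers farthest from the median, and r = 0.957 within G150. Snord73b and its host Rps3a1 had r = 0.653 and rho = 0.599 (permutation p = 0.00016 and 0.00085; adjusted p of r 0.00245), 0.586 without the 2 farthest livers and 0.739 within G150.

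Snord14e and Hspa8 had r = 0.624 and rho = 0.501 (permutation p = 0.00041 and 0.0073; adjusted p of r 0.00471), 0.379 without the 2 farthest livers and 0.791 within G150. Snora23 and Ipo7 had r = 0.552 and rho = 0.496 (permutation p = 0.00205 and 0.00833; adjusted p of r 0.0135), 0.555 without the 2 farthest and 0.417 within G150. For Snord47 and Gas5 r was 0.525 and rho 0.533 (permutation p = 0.00394 and 0.00364; adjusted p of r 0.0198), 0.443 without the 2 farthest and 0.551 within G150. These r hold the differences between groups and batches. With group and batch removed, r was 0.249 for Snord47 and Gas5, 0.404 for Snord73b and Rps3a1, 0.409 for Snora23 and Ipo7, 0.567 for Snord14e and Hspa8 and 0.964 for the Snora73 pair, and the median of the member and host pairs was 0.232. Snord57 and Nop56 did not correlate in this direction (r = -0.184, rho = -0.116, permutation p = 0.346 and 0.556, adjusted p of r 0.409). G151 and G152 held too few livers for a value of their own.

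The proteins that work with these RNAs were read from lists, and of all probe sets 2.63% were lower at 24 than at 6 months. Of box C/D particle proteins (Fbl, Nop56, Nop58, Snu13 and Rrp9) 1 of 5 measured was lower at 24 than at 6 months, Nop56 itself. The list median was -0.33 and all 5 were below 0 (all probe sets, 54.4% below 0). The methyltransferase Fbl had -0.11 (adjusted p = 0.677). Of box H/ACA proteins 1 of 4 was lower, Gar1 (-0.55 ± 0.13, SE; adjusted p = 0.015), and the list's median was -0.24. The pseudouridine synthase Dkc1 had -0.31 (adjusted p = 0.0661). Of assembly and processing factors 2 of 17 were lower, Nolc1 (-0.54, adjusted p = 0.018), a nucleolar chaperone, and Znhit6 (-0.37, adjusted p = 0.0458), a box C/D assembly factor, and the median was -0.09.

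Of the wider list of ribosome biogenesis factors and RNA polymerase I subunits, 16 of 29 were lower and 0 higher (all probe sets, 2.63% and 2.10%), with a median of -0.32 against -0.02 over all probe sets. Gnl3 (nucleostemin) had -0.73 (adjusted p = 0.00396), Wdr12 of the large-subunit PeBoW complex -0.55 (adjusted p = 0.00125), Utp4 of the small-subunit processome -0.44 (adjusted p = 0.00774), and Polr1a, the catalytic subunit of RNA polymerase I, -0.36 (adjusted p = 0.0372). The abundant nucleolar proteins Ncl (-0.15, adjusted p = 0.206) and Npm1 (-0.04, adjusted p = 0.797) did not pass. Of the 9 listed Snhg-type genes that were measured 0 passed (limma), with 2 lower and 0 higher at an unadjusted p under 0.05 (all probe sets, 11.2% and 8.04%).

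At 12 against 6 months 0 of 29 biogenesis genes passed (limma; all probe sets, 0.591%), with 14 lower at an unadjusted p under 0.05 (all probe sets, 6.45%) and a median of -0.20. The same 0.591% stands beside the counts of hosts and assembly factors. Of the 29 hosts 1 was lower, Tbrg4 (-0.32, adjusted p = 0.0311), a mitochondrial RNA-binding protein that carries Snora5c. Of the assembly factors 1 of 17 was higher, Pih1d1 (0.20, adjusted p = 0.0482), a subunit of the R2TP chaperone complex. In the other 2 comparisons none of the biogenesis genes or hosts passed. Of all probe sets only 0.0253% passed at 24 against 12 months and 0.0197% in switched against lifelong livers.

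Some markers of other cells were higher at 24 than at 6 months. B cell markers were higher in 4 of 7 genes (all probe sets, 2.10% higher) (median 0.62), and the mean of the list ran from 5.09 to 5.50 over the 6-month livers and from 5.35 to 6.44 over the 24-month livers. Plasma cell markers were higher in 3 of 7 genes, with list means of 6.28 to 6.55 and 6.85 to 7.89. Macrophage markers were higher in 2 of 12, with list means of 8.02 to 8.52 and 7.94 to 9.45. Of 12 hepatocyte markers 1 was lower (all probe sets, 2.63% lower), Tat (-0.42, adjusted p = 0.0355), and the list means were 12.8 to 13.0 and 12.7 to 12.9. Of T and NK cell (10), endothelial (8), stellate (8) and cholangiocyte (5) markers 0 passed (limma). At an unadjusted p under 0.05, 1 T and NK cell and 3 stellate markers were higher and 1 cholangiocyte marker lower (all probe sets, 8.04% higher and 11.2% lower). No detection call was made, so no marker can be called absent. The part of these cells in the snoRNA values was not tested, and in bulk tissue fewer cells of a type and less RNA per cell cannot be told apart.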

How the data were processed

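Liver RNA (integrity number above 8.0, 100 ng) was amplified with a whole-transcript kit and biotin-labelled, per the labels' protocols. The deposited values are log2 expression made by the authors with RMA, per the submitters' processing notes, whose version and run are not given in the sources used here. RMA adjusts background, equalises arrays and summarises probes, which can narrow differences that most probe sets share. All 35556 probe sets were fitted with limma 3.58.1 in R 4.3.3 (4 groups and array batch as fixed terms, eBayes, Benjamini-Hochberg per comparison, threshold 0.05), and no probe set was filtered out. The members and lists were chosen with earlier results of these data known. Named were members past the threshold, else the 6 of smallest p per comparison, the 6 of smallest batch F p, the 5 brightest of each class and the 3 of largest SD. Hosts were to be matched on strand, which the gene table lacks. Correlations used 100000 permutations. The fit was tested on simulated data. The number of arrays limits the precision. Mice are separate animals, per the labels. Alternatives left out batches, livers or dim probe sets, or changed scaling, moderation, weights, blocking or the probe set standing for a gene. A host gene and values tied to it are not reported here.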

Additional observations from a re-analysis of the deposited data

Results flagged for a closer look

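Within a group, 9 values of the 27 named members lay far from the rest by Dixon's gap test, of 108 groups tested (8.33%). For separate tests of members picked beforehand, chance flags about 1 in 20. That rate cannot be applied here, because members were named from these same values, Snord104 and Snord118 partly for their large SD. The Snora73 genes also vary together (r = 0.971), so their flags are not separate. Whether the flags exceed chance was not tested. In 12-month replicate 7 the flagged values were Snord104 (11.511), Snora73a (7.849) and Snora73b (8.352), each the lowest of its group. Snord118 was high in 12-month replicate 6 (8.099) and low in switched replicate 6 (5.668). Snora44, from Snhg12, was low in 12-month replicate 5 (7.044) and in switched replicate 7 (6.087). Snora23 was high in 6-month replicate 6 (9.743), and Snord52 in 12-month replicate 4 (5.44). The low Snord104 values of switched replicates 6, 7 and 8 do not appear here, because 3 livers lying together leave no gap beside the lowest.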

How the results depend on the processing

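At 12 against 6 months, 1 member passed with the lowest 30% of probe sets left out, with array weights and with 1-gene probe sets alone (each time Snord118), and 0 to 1 leaving out 1 liver. At 24 against 6 months the count of 4 became 2 without the batch term, 0 in G150 alone, 0 in G151 and G152 alone and 8 without the 2 arrays whose names carry a suffix, and ran from 1 to 8 leaving out 1 liver. Counts under each alternative can also move with the other probe sets, over which the adjustment runs. Without the 4 livers that stood apart, chosen after seeing the data, 2 members passed at 12 months (Snord104 and Snord118) and 6 at 24 months (adding Snord52 and Snord104). The livers were chosen by Snord104, whose own calls are therefore no support. They also held the lowest Snord118 values of the 12-month (6.79) and switched (5.67) groups and the lowest Snord52 value (4.29). The calls of Snord118 and Snord52 in this setting are therefore no support either. For batches, 1 member passed for G151 and 1 for G152 with dim probe sets left out, and 1 and 0 without those 4 livers. Snord73a was itself among the dim probe sets left out and so was not tested in that setting. In G151 and G152 alone the median at 24 against 12 months was 0.062, Snord47 was 0.0014 and Snord87 0.00071, so that all 3 turned in sign; the cause was not tested. The median at 24 against 6 months ran from -0.153 to -0.054 over the alternatives and from -0.16 to -0.07 leaving out 1 liver. With the replicate number as a block, 5 members passed at 24 against 6 months (adding Snord104) and 0 in the other comparisons; numbers did not pair livers, since 1 of 39 same-number pairs had r over 0.1 (median -0.00163). Repeated quantile normalization or centring kept the sign of each comparison's median except for G152 against G151 (0.0102 and -0.000245). Arrays give no depth, and no detection call was made, so how far background narrows changes in dim members was not measured.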

Other observations

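Probe sets that name a small nucleolar RNA together with another gene were outside the members, and their values stand here. The one shared by Snora65 and its host Rpl12 was lower at 24 than at 6 months (-0.61 ± 0.16, SE; adjusted p = 0.0274, limma), with a difference of -0.52 at 12 months that did not pass (adjusted p = 0.123). The pair shared by Snord14c, Snord14d and Hspa8 had differences of -0.55 and -0.56 at 24 months (adjusted p = 0.137 and 0.129), beside -0.77 for Snord14e. The one shared by Snora24 and Snhg8 had a difference of 0.26 (adjusted p = 0.21). The other 9 had differences between -0.22 and -0.10 at 24 against 6 months, and none of them passed.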
